A study of Drosophila pseudoobscura with 4 samples.

Results

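The microRNAs dps-mir-92a and dps-mir-92b are neighboring paralogs of the mir-92 family in *Drosophila pseudoobscura*. They were taken by name and are 2 of the 231 microRNAs listed in the read count tables. The study asked how microRNA expression differs between the sexes, and sequenced small RNAs from 2 male and 2 female samples of adult flies. All flies came from one stock, untreated, reared at 18 °C under 12 h of light and 12 h of dark, and collected at an age of 7 days, and the study describes the females as unfertilized. Each of the 2 sequencing runs, on an Illumina MiSeq, held 1 male and 1 female library, and the number in the sample name was taken as the run. Reads on microRNAs numbered 5697 and 67076 in the male libraries (first and second run), and 7111 and 42754 in the female libraries. The first run was therefore shallow. A floor of 3 reads of a microRNA was used here as an approximate upper level for a count of 0. It is 0.0527% of the male library and 0.0422% of the female library of that run, against 0.00447% and 0.00702% in the second.

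MicroRNAs are short RNAs that bind messenger RNAs through the bases near their 5′ end and lower their translation or stability. Members of the mir-92 family are found across animals. In *D. melanogaster* both copies, mir-92a and mir-92b, share their locus with the gene jigr1, which they repress in neural stem cells, while mir-92a acts on shavenoid in the hairless patch of the leg, and mir-92b tunes the muscle factor Mef2. The mir-310 to mir-313 microRNAs, which are abundant in eggs, carry a similar 5′ end.

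In *D. pseudoobscura* both copies lay on chromosome 2, an autosome corresponding to Muller element E. On the assembly UCI_Dpse_MV25, the precursor of dps-mir-92b ran from 24545290 to 24545389 (100 bases) and that of dps-mir-92a from 24549955 to 24550048 (94 bases), and 4565 bases separated them. The protein-coding gene jigr1, from 24546624 to 24549196, filled most of this gap. It started 1234 bases after dps-mir-92b and ended 758 bases before dps-mir-92a. The precursor of dps-mir-92a fell within the span of the long noncoding RNA gene LOC26534059, from 24549850 to 24551501, whereas dps-mir-92b was in no annotated gene. The gene table gives spans without exons or strand, so exonic and intronic positions cannot be told. No other microRNA of the study's annotation, which has 290 positions, was within 10 kb of either copy.

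**Figure D1:**
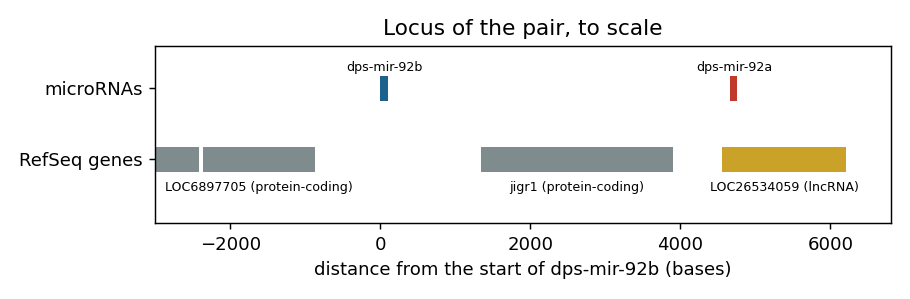
The locus drawn to scale, with the distance in bases from the start of dps-mir-92b on the horizontal axis, the microRNA precursors in the upper row and the RefSeq genes in the lower row. The gene jigr1 (2573 bases) sits between the precursors, and dps-mir-92a is within the span of the noncoding RNA gene.

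Both copies took a smaller share of the reads in males than in females, and dps-mir-92b had more reads than dps-mir-92a in every library. For dps-mir-92a there were 0 and 7 reads in the males (first and second run) and 7 and 83 in the females. For dps-mir-92b there were 8 and 84 reads in the males and 44 and 1440 in the females. The groups did not overlap for either copy once the reads were scaled to the size of the library. Such a separation says little with 2 against 2 libraries, where the smallest p of an exact permutation test is 0.333. Other tested microRNAs also separated by sex, among them dps-mir-318 and dps-mir-9b (higher in females) and dps-mir-284 (higher in males). How many did so was not counted, so the separation describes these libraries and is not read as a trait of the pair. As a share of all reads, dps-mir-92a took 0% and 0.0104% of the male libraries, against 0.0984% and 0.194% of the female ones. The share of dps-mir-92b was 0.140% and 0.125% in males, against 0.619% and 3.37% in females. By number of reads dps-mir-92b was thus the 31st and the 39th microRNA in the males (first and second run), against the 17th and the 9th in the females. The copy dps-mir-92a ranked 76th in the second male library, against 37th and 35th in the female libraries. In the first male library it was not detected, and 0 reads of 5697 allow a share of up to 0.0527%, which is below its share in both females.

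**Figure D2:**
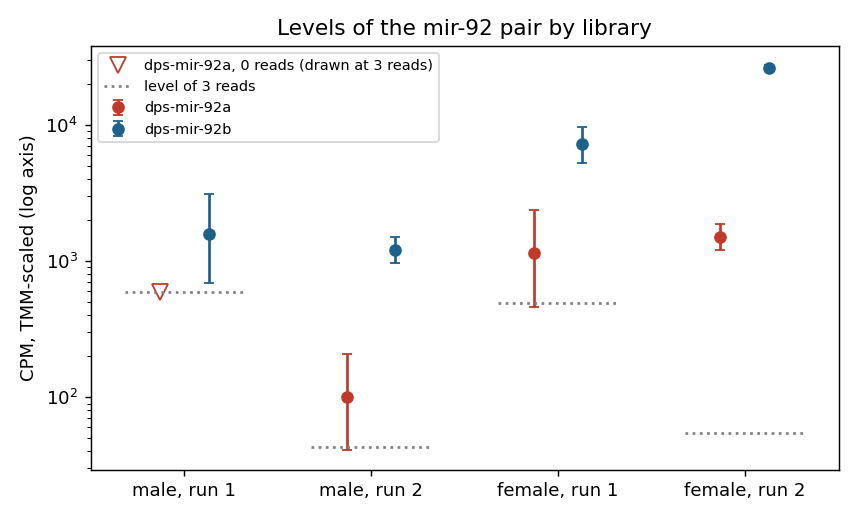
Normalized levels (CPM, reads scaled to library size, here scaled with TMM factors) of dps-mir-92a (red) and dps-mir-92b (blue) in each library, on a logarithmic axis. Bars are exact 95% Poisson intervals of the read count, dotted lines mark the level of 3 reads, and the open triangle is a count of 0 drawn at that level. Male libraries are lower than female libraries for each copy, and the widest intervals on this axis are those of counts of 7 and 8 reads.

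The sex bias was tested across the 84 microRNAs whose base mean (the mean count after DESeq2's scaling) was 1 or more, in a model with terms for the run and for sex. Fold changes are male over female, and negative values are higher in females. Both copies passed this filter, with base means of 14.4 and 185, to which the female libraries contributed most of the reads. The copy dps-mir-92a averaged 50.6 ± 71.6 CPM over the 2 males and 1331 ± 256 CPM over the 2 females (± SD), a difference of 15.7-fold in the model (log2 fold change -3.97, standard error 0.42, 95% interval -5.07 to -2.87). Its adjusted p in edgeR was 0.00703. For dps-mir-92b the means were 1403 ± 267 CPM in males and 16726 ± 13437 CPM in females, a difference of 12.1-fold (log2 fold change -3.59, standard error 0.79, 95% interval -5.68 to -1.50), with an adjusted p of 0.0699 in edgeR. With the thresholds of the study, an FDR of 10% and a 25% change in level, edgeR thus called both copies as overexpressed in females, where 7.14% of the 84 were called in that direction. In the order of the fold changes dps-mir-92a was the 3rd and dps-mir-92b the 5th most female-biased. DESeq2 called both (adjusted p = 2.25e-05 for dps-mir-92a and 1.72e-05 for dps-mir-92b), with 9.52% of the 84 called in that direction. Limma-voom called dps-mir-92a (adjusted p = 0.0313) and not dps-mir-92b (adjusted p = 0.105), with 4.76% called. Nothing in the labels says that the samples of a sex came from separate cultures, so the p-values measure only the spread between these samples.

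Several calls were lost when a library was left out. Leaving a library out also took the run out of the model, and the sex left with 1 library was then assumed to vary like the other, and the standard errors were larger. Without the first male library the log2 fold changes were -4.07 for dps-mir-92a (standard error 1.70, adjusted p = 0.267 in edgeR) and -4.25 for dps-mir-92b (standard error 2.08, adjusted p = 0.421), in size above those with all libraries. Without the second male library the adjusted p was 0.170 for dps-mir-92a and 0.482 for dps-mir-92b, whose log2 fold change was -3.36. In that last fit the only male count of dps-mir-92a was 0, so that its log2 fold change of -7.92 has no lower bound in the data. Without the second female library dps-mir-92b had a log2 fold change of -2.52 and was not called (adjusted p = 0.633), while dps-mir-92a was (log2 fold change -3.89, adjusted p = 0.0239). Without the first female library both were called (adjusted p = 0.0616 and 0.0407). The sign was negative in all of these fits.

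The median of all 84 log2 fold changes moved with the normalization, being 0.46 with TMM, 0.09 with DESeq2's size factors and 0.28 with total counts. Relative to this median, dps-mir-92a was at -4.44 with TMM, -4.48 with DESeq2's size factors and -4.53 with total counts. The copy dps-mir-92b was at -4.06, -4.06 and -4.07. A scaling shifts all fold changes by about the same amount, so these values are expected to be alike and are no check of the normalization.

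Reads from one copy could have been assigned to the other where the mature sequences are alike, so the reads of both were also added into 1 feature. The sum was 8 and 91 reads in males, against 51 and 1523 in females. It took 0.140% and 0.136% of the male libraries, and 0.717% and 3.56% of the female ones. In the same model the log2 fold change of the sum was -3.81 (standard error 0.76, 95% interval -5.32 to -2.30), with an adjusted p of 3.67e-05 in edgeR. This p-value should not be read as stronger evidence than that of dps-mir-92b (adjusted p = 0.0699 in edgeR). The log2 fold change and standard error of dps-mir-92b were close to those of the sum (-3.59 and 0.79). The p-values differ mostly through the degrees of freedom (the information on spread, shared across microRNAs) that edgeR estimated in each fit. The adjusted p of the sum also varied with the filter, being 0.132 when every microRNA with a read was tested and 0.271 with a base mean of at least 10. Across the other settings with all libraries it was between 5.53e-11 and 0.0656. Since most reads of the sum were those of dps-mir-92b, it bears little on dps-mir-92a, whose direction under another division of the reads was not tested.

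**Figure D3:**
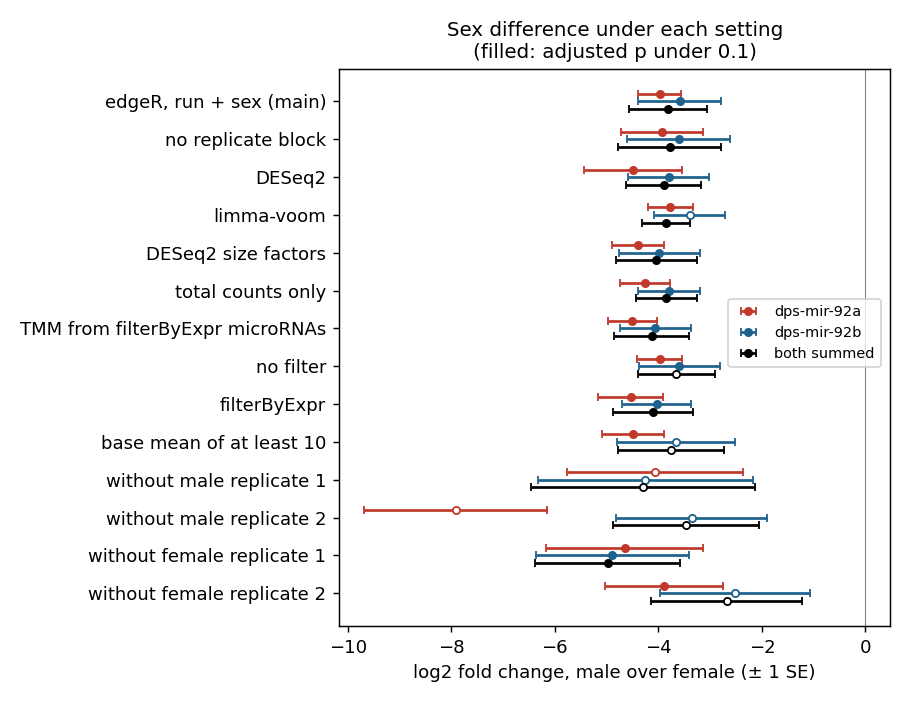
Log2 fold changes of male over female (horizontal axis, ± 1 standard error) of dps-mir-92a (red), dps-mir-92b (blue) and their summed reads (black) in the main fit and under each alternative. Filled points have an adjusted p under 0.1; all values are negative, from -7.92 to -2.52, and most open points are in the fits that leave out a library.

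Within the runs, both copies were lower in the male than in the female library, and the size of the bias differed between the runs for dps-mir-92b and could not be told apart at this depth for dps-mir-92a. The ratios that follow are of shares of the library, with exact 95% intervals that cover counting error only. These reads carry no molecular identifiers, so amplified copies cannot be told from separate molecules and the intervals can be too narrow. In the first run, dps-mir-92a had 0 reads in the male library against 7 in the female one. With 3 reads taken as the floor of the male library, the female level was 1.87-fold higher, without the counting error of its 7 reads. The exact interval of the male level over the female level was 0 to 0.866, which allows a female level only 1.15-fold higher. In the second run its level in males was 0.0538 of that in females (0.0210 to 0.116). For dps-mir-92b the male level in the first run was 0.227 of the female level (0.0923 to 0.487), and for the second run this ratio was 0.0372 (0.0295 to 0.0463). These intervals do not overlap. The sex ratios of dps-mir-92b in the 2 runs thus differed by more than the counting error that the intervals cover. With 1 library of each sex in a run, the spread between flies within a run is not known, and the model has no term for a sex difference that changes with the run.

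**Figure D4:**
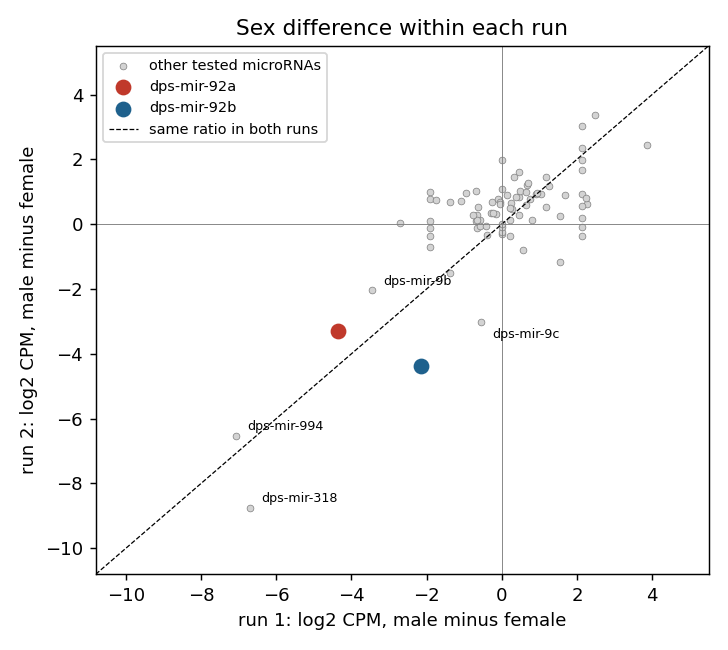
Difference in log2 CPM (male minus female, prior count of 2 reads) within the first run (horizontal axis) and the second (vertical axis) for the 84 tested microRNAs, with dps-mir-92a in red, dps-mir-92b in blue and others in gray. The red point (-4.35 and -3.29) and the blue point (-2.14 and -4.37) are both negative in each run and lie on opposite sides of the dashed line of equal ratios; vertical rows of gray points are microRNAs with 0 or 1 reads in the first run.

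In males the level of dps-mir-92b in the first run was 1.12 of that in the second (0.469 to 2.31), an interval that includes equal levels, while in females it was 0.184 (0.133 to 0.248). The levels of dps-mir-92b that differed between the runs were thus those of the females. For dps-mir-92a, 0 against 7 reads gave no usable ratio in males (0 to 8.17), and in females the ratio was 0.507 (0.198 to 1.09). In log2 CPM, the first run minus the second was -1.85 for dps-mir-92b in females, the 4th lowest among 52 better covered microRNAs (base mean of 10 or more), whose median was -0.24. The value for dps-mir-92a was -0.38, the 23rd lowest. The run effect averaged over the sexes was not called for either copy in edgeR's quasi-likelihood test (log2 fold change of the first run over the second -0.52 ± 0.46, standard error, adjusted p = 0.620 for dps-mir-92a and -0.98 ± 0.75, adjusted p = 0.482 for dps-mir-92b). In that test 1.19% of the 84 were called. This share depended on the method, being 31% with DESeq2 and 13.1% with limma-voom, neither of which called either copy for the run.

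The copies were then set against each other within each library, a comparison that needs no normalization between libraries. In the males dps-mir-92a had 0 of 8 reads of the pair in the first run, a share of 0% (exact Clopper-Pearson 95% interval, 0% to 36.9%). It had 7 of 91 in the second, a share of 7.69% (3.15% to 15.2%). In the females it had 7 of 51 in the first run, or 13.7% (5.70% to 26.3%), and 83 of 1523 in the second, or 5.45% (4.36% to 6.71%). The copy dps-mir-92b was the more abundant in all 4 libraries, as each interval ends below 50%. Per base of precursor the order was the same, and dps-mir-92a then had 0% and 8.14% of the pair in males, and 14.5% and 5.78% in females.

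The share of dps-mir-92a did not separate the sexes. It averaged 3.85 ± 5.44% over the 2 males and 9.59 ± 5.85% over the 2 females (± SD), a difference of -5.74 percentage points (exact permutation test, two-sided, p = 0.667, where the smallest p that 2 against 2 samples allow is 0.333). With the reads of both runs added, the order turned round, at 7.07% in males (7 of 99 reads) and 5.72% in females (90 of 1574). Fisher's exact tests between single libraries, of which 4 were made, compare the libraries and not the sexes. Male against female gave an exact p of 0.578 in the first run (0.770 after Benjamini-Hochberg adjustment over the 4) and an exact p of 0.345 for the second (0.690 adjusted). The first run against the second gave an exact p of 1 in males and of 0.0232 in females (0.0929 adjusted). Within the females, dps-mir-92b had 6.29 reads for each read of dps-mir-92a in the first run, and 17.3 reads in the second.

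**Figure D5:**
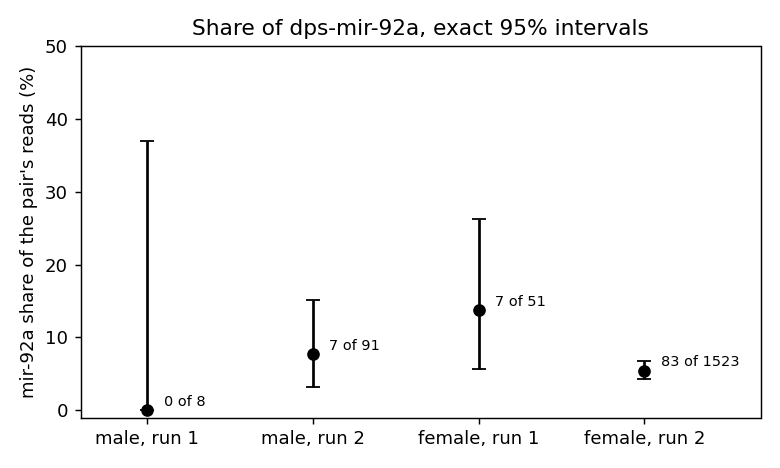
Share of dps-mir-92a in the reads of the pair (vertical axis, percent) in each library, with exact Clopper-Pearson 95% intervals and the reads behind each share. Shares run from 0% to 13.7%, all intervals end below 50%, and the males' and females' shares overlap.

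The other members of the family gave little signal. For dps-mir-92c there was 1 read, in the second male library, and for dps-mir-311 there were 4 reads in the same library, while both females had 0. Neither reached the base mean for testing, and no other microRNA with a mir-310 to mir-313 name was analysed here. Of the 7 family names searched, 4 were in the tables, 2 were tested and these 2, the pair itself, were the ones called. No mature sequence was at hand to check which microRNAs share the 5′ end of the pair.

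The microRNAs whose levels over the 4 libraries were most like those of the pair were sought among the other 51 of these, by the root mean square difference of centered log2 CPM. For dps-mir-92a the nearest were dps-mir-9b (0.57), dps-mir-92b (0.87) and dps-mir-9c (1.36). For dps-mir-92b they were dps-mir-9c (0.75), dps-mir-92a (0.87) and dps-mir-9b (0.95). Each copy thus had a member of the mir-9 family closer than its own paralog, although 4 libraries are few for such an order and the reads of the mir-9 copies could also be divided between them. In the first male library dps-mir-92a had 0 reads and dps-mir-9b had 2. The log2 CPM of dps-mir-92a there was set by the prior count of 2 reads, and its distances depend on that value. The levels of dps-mir-9b were 398 and 1055 CPM in males and 4926 and 4517 CPM in females, with little difference between the female libraries, as for dps-mir-92a (1149 and 1512 CPM). Those of dps-mir-9c were 3583 and 2256 CPM in males and 5255 and 18578 CPM in females, high in the female library of the second run as for dps-mir-92b (7225 and 26227 CPM). In edgeR's quasi-likelihood test dps-mir-9b was called (log2 fold change -2.49, adjusted p = 0.0537) and dps-mir-9c was not (log2 fold change -1.98, adjusted p = 0.215).

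Whole flies include the gonads, and fewer cells of a type cannot be told apart from less of the RNA per cell. MicroRNAs associated with the ovary in *D. melanogaster* (mir-318, mir-994, mir-989 and mir-9c) were measured beside the pair. Their summed level, most of it from dps-mir-318, was 3981 and 2342 CPM in males and 60428 and 81833 CPM in females, and 2 of the 4 were called by edgeR, both as overexpressed in females. These were dps-mir-318 (398 and 72.3 CPM in males, 47127 and 56498 CPM in females) and dps-mir-994 (0 and 14.5 CPM in males, 7882 and 6721 CPM in females). The male values rest on 2 and 5 reads of dps-mir-318 and on 0 and 1 reads of dps-mir-994. The other members were not called. These were dps-mir-9c, given above, and dps-mir-989, which had 0 reads in both males and 1 and 2 reads in the females (adjusted p = 0.564 in edgeR). Between the female libraries the members of this list did not vary alike. The first run minus the second on log2 CPM was -0.26 for dps-mir-318, 0.23 for dps-mir-994 and -1.81 for dps-mir-9c. For dps-mir-92b it was -1.85, and dps-mir-989 had too few reads to compare. Of 6 testis-associated microRNAs (mir-959 to mir-964) 2 were in the tables, and they summed to 199 and 145 CPM in males, from 1 and 10 reads, and were at 0 in both females. The muscle microRNA dps-mir-133 had 1194 and 2617 CPM in males and 493 and 911 CPM in females, and edgeR called it as overexpressed in males (log2 fold change 1.46, adjusted p = 0.0699). Its levels in the first run rest on 6 reads in the male and 3 in the female library. The other microRNA of the muscle list, mir-1, was not among those counted. The neural dps-mir-124 and dps-mir-7 together had 597 and 376 CPM in males and 164 and 328 CPM in females. In the first run these sums came from 3 reads in the male and 1 read in the female library, all of dps-mir-124. The part of the ovary or of other tissues in the bias of the pair was not tested.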

How the data were processed

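Small RNA libraries of 2 male and 2 female samples were analysed. For each, the authors deposited raw read counts, not normalized, per annotated microRNA precursor. Adapters had been trimmed, reads aligned with HISAT2, and counts taken with featureCounts, after removing precursors that map identically to several regions. Precursor positions are those of the study's annotation, and genes are from RefSeq on UCI_Dpse_MV25. A blank last line of each table was dropped.

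Counts were fitted across all microRNAs by the quasi-likelihood test of edgeR 4.0.16 after TMM normalization (R 4.3.3), with run and sex in the model as in the study, and p-values were adjusted by Benjamini-Hochberg over the 84 tested. DESeq2 1.42.0 (local fit) and limma 3.58.1 (voom) were alternatives. Standard errors of edgeR are the fold change divided by the root of F. Male and female run deviations correlated (Pearson r = 0.567 over the 84). Both libraries taken as the first run were shallow, so a shared run cannot be told apart from a shared depth. The study states that each run held 1 male and 1 female sample, and matching them by the number in the sample name was assumed. Shares were tested in Python 3.11.15 with scipy 1.17.1. The fits were tested on simulated counts with known fold changes and a run effect shared by the sexes. Those counts do not cover a sex difference that changes with the run, as was seen for dps-mir-92b.

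The microRNAs named were the pair, its family, those within 10 kb, the 3 most alike for each copy, and the ovary, testis, muscle and neural lists. Members and lists were chosen with earlier results of these data known. Other settings covered the run term, the test, the normalization, the filter and each library left out. Reads in the first run were few, so its values are imprecise.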

Additional observations from a re-analysis of the deposited data

Results flagged for a closer look

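For dps-mir-92b the difference between the runs had opposite signs in the sexes. The first run minus the second was 0.37 in males and -1.85 in females on log2 CPM, a gap of 2.23. It was the 4th largest such gap in size among the 52 better covered microRNAs (base mean of 10 or more), and 16 of the 52, dps-mir-92b among them, had opposite signs. The male value rests on 8 reads in the first run and its counting interval includes no difference. With 1 library for each sex and run, the difference between the sexes was not tested.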

How the results depend on the processing

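The direction of the sex bias of dps-mir-92a, dps-mir-92b and their sum was the same under every setting run. With all libraries, dps-mir-92a was called by all 9 alternatives, at log2 fold changes from -4.53 to -3.77. The copy dps-mir-92b was called by 7 of 9 and not by limma-voom (-3.40) or with a base mean of at least 10 (-3.66). The sum was called by 7 of 9 and not with no filter (-3.66) or with a base mean of at least 10 (-3.75). With no replicate block the values were -3.93 for dps-mir-92a (adjusted p = 0.0435 from edgeR), -3.61 for dps-mir-92b (adjusted p = 0.0854) and -3.78 for the sum (adjusted p = 0.0656), and leaving out the block changed none of these calls. Leaving out a library, with sex as the one term, gave -7.92 to -3.89 for dps-mir-92a, -4.89 to -2.52 for dps-mir-92b and -4.98 to -2.68 for the sum. The number of microRNAs called for sex was 11, against 17 with DESeq2, 6 with limma-voom, 5 with a base mean of at least 10, 9 with no replicate block and 0 to 4 with a library left out. The 0, by edgeR without the second male library, had 8 at an unadjusted p under 0.05. The run difference of dps-mir-92b was called only with total counts (-1.45, adjusted p = 0.0478 from edgeR). That setting called 40.5% of the 84 for the run, and the other settings 0.763% to 36.4% of the microRNAs they tested. The sex difference in the share of dps-mir-92a turned to 1.35 percentage points with the reads of a sex summed, and was -9.88 to -1.60 with a library left out. The causes were not tested. Depth limits the first run most, where dps-mir-92a had 0 and 7 reads.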
